A study of Mus musculus with 2 samples.

Results

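The genes described here carry fatty acids into the cell and burn them in mitochondria. They are 37 of the 21911 protein-coding genes of GENCODE vM21 on the mouse genome build mm10, taken from a fixed list of symbols, all of which were found in the annotation. Open chromatin around them was mapped by DNase-seq, in which nuclei are digested with DNase I and the ends released from accessible DNA are sequenced. The only group was whole heart tissue from newborn mice of strain B6NCrl at postnatal day 0, with no treatment or altered genotype named in the labels. It held 2 libraries, numbered as biological replicates 1 and 2, whose labels name separate biosamples but 1 donor, with sex not collected. An SD given here is therefore the spread of 2 samples of 1 donor label, possibly technical alone, and with no second group no test between conditions was possible.

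Fatty acids reach the heart muscle cell as free acids or are released from circulating triglyceride by lipase at the vessel wall. Inside the cell they are activated to acyl-CoA, passed into mitochondria as carnitine esters, and shortened in a repeated spiral that yields acetyl-CoA and reduced electron carriers. The heart turns from glucose and lactate toward fatty acids around birth, and genes of this pathway are known targets of the nuclear receptors of the PPAR and ERR families.

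Each library came with a list of peaks of 150 bp and a list of hotspots, which are broader stretches of raised cleavage. There were 164657 peaks in replicate 1, with a middle value of 36, and 144708 in replicate 2, with a middle value of 35. The value is the authors' own signal for a peak, a whole number, and is used here to rank and describe sites within a library. The lists hold no read totals, which leaves the depth behind each value unknown, and a weak site missing from a list may still be accessible. In bulk tissue, fewer cells with an open site and a less open site in each cell cannot be told apart. The heart label was checked against markers. All 8 cardiomyocyte markers had a peak in both libraries within 500 bp of a transcription start site (TSS), with mean values from 58 to 112, and so did all 6 endothelial markers, from 40.5 to 79. Of 6 hepatocyte markers, none had such a peak in both libraries. The same was found for 4 of 5 adipocyte markers, 4 of 5 macrophage markers, 4 of 6 skeletal muscle markers and 2 of 4 brown adipocyte markers. The markers that did have one were Cidec (13 and 9), Cd68 (39 and 29), Myog (38 and 36), Actn3 (22 and 22), Dio2 (45 and 24) and Cidea (55 and 46), each given for replicate 1 and then replicate 2. Plin1 of the adipocyte list had a peak of 53 in replicate 1 alone, and Ucp1 one of 19 in replicate 2 alone. Genes in the same deciles of promoter CpG content had such a peak in both libraries in 39.4% (cardiomyocyte), 46.5% (endothelial) and 29.0% (hepatocyte) of cases. For the other lists it was 24.2% (adipocyte), 23.5% (macrophage), 49.3% (skeletal muscle) and 73.7% (brown adipocyte). The adipocyte and macrophage counts are thus near the share of genes of like CpG content. The part of other cell types in the results on fatty acid genes was not tested.

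Stretches of open chromatin at these genes are shown first where they match motifs of the pathway's nuclear receptors. The ERR element was searched as TNAAGGTCA on both strands. The direct repeat read by PPAR with its partner RXR was searched on both strands in a loose form, GGNCA, any base and AGGNCA in a row. Both contain a GGTCA core or a relaxed form of it, so that the motifs can overlap. The sequences below are peaks of replicate 1 that overlap a peak of replicate 2 and hold a match outside annotated exons. They come from mm10, are written 5′ to 3′ on the strand of the gene, and carry the match in capitals. A match describes the letters of a peak and does not show that a factor is bound.
Acacb promoter, chr5:114146136-114146285, plus strand: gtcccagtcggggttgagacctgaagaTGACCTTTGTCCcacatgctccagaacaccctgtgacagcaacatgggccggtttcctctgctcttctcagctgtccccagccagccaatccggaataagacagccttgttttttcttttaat
Slc27a1 promoter, chr8:71568396-71568545, plus strand: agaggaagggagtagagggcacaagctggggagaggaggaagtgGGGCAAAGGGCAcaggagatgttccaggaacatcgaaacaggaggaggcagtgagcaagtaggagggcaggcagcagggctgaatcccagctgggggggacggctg
Cd36 intron, chr5:17876736-17876885, minus strand: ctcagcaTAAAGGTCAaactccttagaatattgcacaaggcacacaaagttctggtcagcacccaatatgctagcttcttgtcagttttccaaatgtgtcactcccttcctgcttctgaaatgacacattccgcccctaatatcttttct
Cd36 second intronic site, chr5:17877196-17877345, minus strand: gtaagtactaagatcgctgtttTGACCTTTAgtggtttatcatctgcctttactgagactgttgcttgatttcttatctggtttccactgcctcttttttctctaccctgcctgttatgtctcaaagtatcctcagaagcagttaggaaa
Fabp3 upstream, chr4:130306836-130306985, plus strand: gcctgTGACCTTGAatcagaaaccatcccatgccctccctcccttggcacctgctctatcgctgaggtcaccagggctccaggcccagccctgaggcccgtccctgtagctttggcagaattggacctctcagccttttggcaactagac
Fabp3 far upstream, chr4:130292396-130292545, plus strand: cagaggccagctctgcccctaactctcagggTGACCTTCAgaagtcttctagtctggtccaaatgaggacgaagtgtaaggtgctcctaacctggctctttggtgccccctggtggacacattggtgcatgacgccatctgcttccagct
Cpt1a intron, chr19:3326616-3326765, plus strand: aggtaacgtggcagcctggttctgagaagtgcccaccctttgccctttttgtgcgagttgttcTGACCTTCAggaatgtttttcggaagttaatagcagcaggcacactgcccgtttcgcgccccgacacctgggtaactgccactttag
Pdk4 intron, chr6:5494496-5494645, minus strand: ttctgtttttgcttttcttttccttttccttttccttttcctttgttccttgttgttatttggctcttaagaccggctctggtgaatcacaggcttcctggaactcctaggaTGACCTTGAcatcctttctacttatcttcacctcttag
Acsl3 downstream, chr1:78737676-78737825, plus strand: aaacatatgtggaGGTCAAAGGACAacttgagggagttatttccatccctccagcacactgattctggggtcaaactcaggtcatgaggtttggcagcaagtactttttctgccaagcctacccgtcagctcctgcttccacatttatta

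Of these 9 peaks, the Acacb and Slc27a1 promoter peaks and the Acsl3 peak hold the direct repeat, and the other 6 hold the ERR element. The Acacb peak was centred 324 bp before the 5′ end of the gene and had values of 89 and 84. The Slc27a1 peak lay 411 bp before the 5′ end with 51 and 52. In Cd36 the intronic sites lay 12 and 11.5 kb into the gene, with 71 and 64 at the first and 35 and 36 at the second. Fabp3 had one site 1.7 kb upstream with 75 and 55, and another 16.1 kb upstream with 45 and 44, where Serinc2 is the nearest protein-coding gene. The Cpt1a site lay 4.4 kb into the gene with 36 and 37, and the Pdk4 site 1.7 kb into the gene with 23 and 18. The Acsl3 site lay 79.9 kb from the 5′ end, beyond the end of the gene, with 45 and 36. Its match was not inside the peak of replicate 2, and annotated repeats cover 68.7% of it. An Etfdh promoter peak and a Hadh distal peak also held a match, but lie in exons and are not printed.

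Counted over all peaks, the ERR element was in 9 of 350 distal peaks (2.57%) around these genes in replicate 1 and in 8 of 328 (2.44%) in replicate 2. Distal peaks are those centred over 1 kb from every annotated TSS. Genome-wide the element was in 1.42% of 121677 distal peaks of replicate 1 and 1.43% of 103652 of replicate 2. In promoter peaks of these genes it was in 0 of 85 in replicate 1 and 1 of 82 (1.22%) in replicate 2, against 0.559% and 0.495% of all promoter peaks. The direct repeat was in 3 of 85 promoter peaks (3.53%) of these genes in replicate 1 and 4 of 82 (4.88%) in replicate 2, against 0.329% and 0.344% of all promoter peaks. In distal peaks it was found once in each library, below its genome-wide share of 0.508% and 0.518%. The stricter repeat, GGTCA, any base and AGGTCA, was in none of these promoter or distal peaks, and in 0.0304% and 0.0386% of all distal peaks. The shares of both motifs at these genes rest on at most 9 peaks each. Motifs of other factors lay on either side of their genome-wide shares. The MEF2 motif was in 1.14% and 0.915% of distal peaks here against 2.17% and 2.30% of all, and the GATA motif AGATAA in 7.43% and 8.84% against 9.93% and 9.43%. The GC box GGGCGG was in 8.29% and 6.40% of distal peaks here against 5.18% and 5.49% of all, and in 36.5% and 36.6% of promoter peaks against 37.9% and 38.8%. The NRF1 motif was in 2 distal peaks of each library (0.571% and 0.610%) against 0.141% and 0.161%, and in 2.35% and 2.44% of promoter peaks against 3.86% and 4.07%. The E box CACGTG was in 1.71% and 2.44% of distal peaks against 3.11% and 3.22%. Other motifs than the ERR element thus also had higher shares in these distal peaks than in all.

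Promoters of fatty acid genes were accessible with a single exception. A peak centred within 500 bp of a TSS of the gene was called in both libraries at 36 of 37 genes, where 63.7% of all protein-coding genes had one. Promoters rich in CpG are open in most tissues, so the CpG content within 500 bp of the 5′ end was compared as observed over expected. Genes of the same CpG deciles had such a peak in 76.7% of cases on average. The fatty acid genes also have more annotated TSSs, a median of 5 against 3 for all protein-coding genes. More TSSs give more places where a peak can count, and the share was not matched for this. In the 4 lowest CpG deciles, where 25.7% of genes had one, 6 of 7 genes did, namely Cd36, Slc27a1, Acsl5, Cpt1b, Acacb and Eci2. At the 5′ end itself these deciles had a peak at 5 of the 7, against 14.7%. Counting only the 5′ end of the gene, its outermost TSS, a peak was present in both libraries at 34 of 37 genes. The share was 57.6% of all genes and, on average, 70.9% of genes in the same CpG deciles. Acsl5, Acsl6 and Ucp3 lacked a peak there in at least 1 library. No promoter peak in either library was found at 1 gene, Ucp3, and at 32.5% of protein-coding genes.

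The height of these peaks was measured as the highest promoter peak value of each gene. Its median was 94.5 in both libraries for the 36 genes, with a range from 55 to 123 in replicate 1 and 34 to 119 in replicate 2. All protein-coding genes with a promoter peak in both libraries had medians of 89 and 85. The mean of both libraries was above the median of all such genes, 87, at 26 of the 36 genes. It reached the upper quartile of 104 at 14 genes and lay at or below the lower quartile of 63.5 at 3, namely Plin5, Acsl5 and Acsl6. Replicate 1 had the higher value at 29 genes and replicate 2 at 6, and genome-wide replicate 1 was higher at 68.3% of genes. The values of a gene differed between libraries by a median of 8.5, against 6 for all genes. Differences of this size between genes are within the spread of the libraries.

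**Figure D1:**
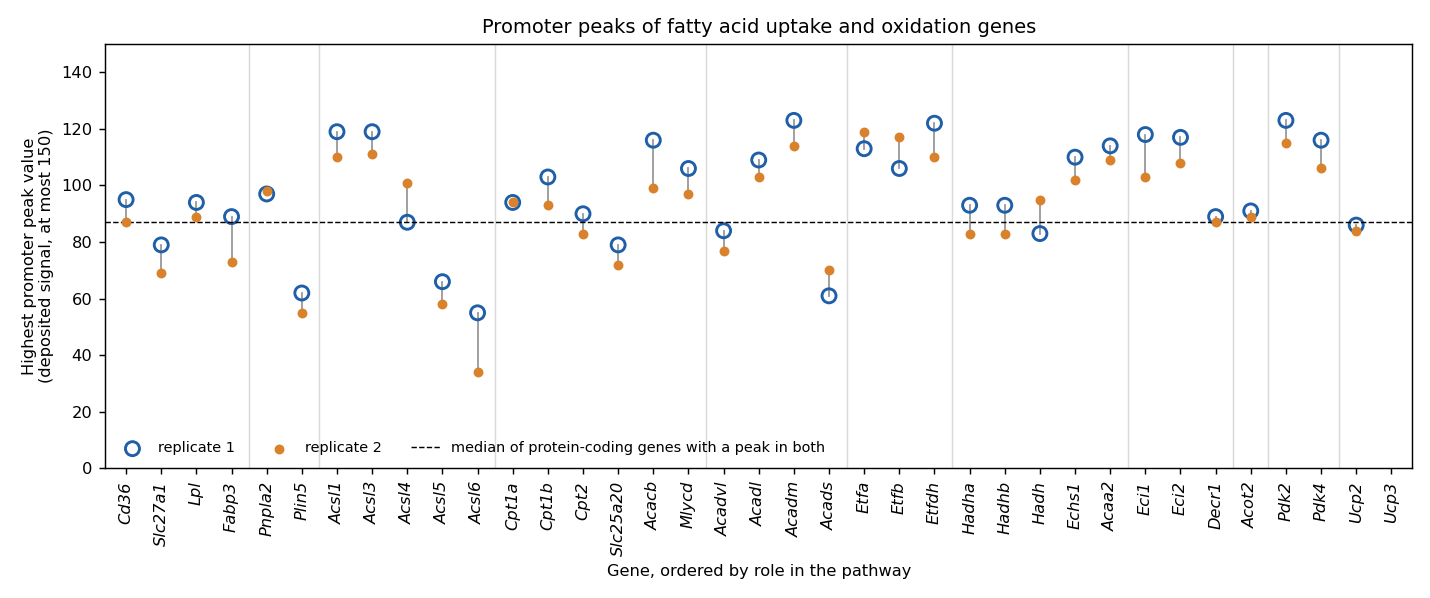
Highest promoter peak value (vertical axis, deposited signal) of each of the 37 genes, ordered by role, with an open ring for replicate 1 and a filled dot for replicate 2 joined by a line; the dashed line is the median of 87 for all protein-coding genes with a promoter peak in both libraries. Acsl6, Plin5, Acsl5 and Acads sit lowest by the mean of both libraries. The electron transfer genes and the kinases Pdk2 and Pdk4 sit at 106 or above in both libraries, and Ucp3 has no point.

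Genes of uptake had mean promoter values from 74 to 91.5, on either side of the genome-wide median. Cd36, which encodes the main fatty acid translocase of the cell surface, had 95 in replicate 1 and 87 in replicate 2. Lpl, the lipase that frees fatty acids from lipoproteins at the vessel wall, had 94 and 89. Slc27a1, a fatty acid transport protein, had 79 and 69, and Fabp3, the fatty acid binding protein of the heart cytosol, had 89 and 73. In each library Cd36 and Lpl were above Fabp3, and Fabp3 was above Slc27a1, while Cd36 and Lpl changed places between libraries. Across libraries, the range of Fabp3 overlaps those of Cd36 and Slc27a1 and reaches 89, the lower value of Lpl. Fabp3 shares its TSS region with Gm10570, so its peak cannot be given to either gene. At the lipid droplet, the triglyceride lipase gene Pnpla2 had 97 and 98. Plin5, whose protein coats the droplet and tethers it to mitochondria, had 62 and 55, lower than Pnpla2 in both libraries.

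The long-chain acyl-CoA synthetases, which activate fatty acids, were the most uneven family. Acsl1, the main form of the heart, had 119 and 110 at its 5′ end and a second peak of 94 and 86 at an internal TSS 19974 bp into the gene. Acsl3 had 119 and 111, at a TSS that lies within 500 bp of that of Utp14b. Acsl4, which prefers arachidonic acid, had 87 and 101. Acsl5 had 66 and 58, and Acsl6, known from brain, had 55 and 34. The order of Acsl1 and Acsl3 above Acsl4, and of Acsl4 above Acsl5 and Acsl6, held in each library, while Acsl1 and Acsl3 did not differ beyond their spread. For Acsl5 the peak was centred 1693 bp inside the gene, and for Acsl6 10.2 kb inside, both at internal TSSs. At the 5′ end of Acsl6 there was a peak of 21 in replicate 1 alone.

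Both forms of carnitine palmitoyltransferase 1, the gate of the mitochondrion, were accessible. Cpt1a, the form of liver and of the fetal heart, had 94 in each library, and Cpt1b, the muscle form, had 103 and 93. The Cpt1a peak lay 957 bp inside the gene at an internal TSS, and its 5′ end had 52 and 54. The values of Cpt1a and Cpt1b differed by less than the spread between libraries. The inner membrane steps followed with Cpt2, which releases the acyl group again, at 90 and 83, and the carnitine-acylcarnitine carrier gene Slc25a20 at 79 and 72. Malonyl-CoA blocks the gate, and the genes that set its level had Acacb, its synthase at mitochondria, at 116 and 99, and Mlycd, the decarboxylase that removes it, at 106 and 97.

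Acyl-CoA dehydrogenases take the first step of the spiral and differ in the chain length they accept. Acadvl, for very long chains, had 84 and 77. Acadl, for long chains, had 109 and 103, with a second peak of 96 and 91 just inside the gene. Acadm, for medium chains, had 123 and 114, and Acads, for short chains, had 61 and 70. Acadm and Acadl were thus above Acadvl, and Acadvl above Acads, in both libraries. In Acadm the highest peaks of the libraries did not overlap, being centred 41 bp inside the gene in replicate 1 and 139 bp before it in replicate 2. The replicate 1 peak that did overlap the latter had 111.

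Electrons from these enzymes pass through electron transfer flavoprotein, and its genes had a uniformly high level. Etfa and Etfb, which encode its subunits, had 113 and 119, and 106 and 117. Etfdh, the dehydrogenase that hands the electrons to ubiquinone, had 122 and 110. Means ± SD (n = 2) were 116 ± 4.24 for Etfa, 111.5 ± 7.78 for Etfb and 116 ± 8.49 for Etfdh, and the ranges overlap. The Etfb promoter is shared with Gm45233 and Mir7051 and the Etfdh promoter with 4930579G24Rik. The highest Etfdh peak lay 669 bp inside the gene in replicate 1 and 629 bp in replicate 2, and its outermost TSS had 58 and 53.

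Later steps of the spiral had values from 83 to 114 in replicate 1. Hadha and Hadhb encode the subunits of the trifunctional protein and start back to back from 1 promoter on chromosome 5, so both carry the same 93 and 83. The highest peaks of the libraries at this promoter did not overlap, but each was matched by a lower one of the other library, giving pairs of 93 and 79 and of 86 and 83. Hadh, the short-chain hydroxyacyl-CoA dehydrogenase, had 83 and 95, and Echs1, the short-chain enoyl-CoA hydratase, had 110 and 102. Acaa2, the mitochondrial thiolase, had 114 and 109 at a promoter shared with Gm23119. Genes needed for unsaturated chains were Eci1 at 118 and 103, Eci2 at 117 and 108, and Decr1 at 89 and 87. The isomerase genes Eci1 and Eci2 were above the reductase gene Decr1 in both libraries. Acot2, a mitochondrial thioesterase, had 91 and 89.

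Pyruvate dehydrogenase kinases hold back glucose oxidation when fatty acids are burned. Pdk2 had 123 and 115 and a second peak of 94 and 86 just inside the gene, and Pdk4, a known PPAR and ERR target, had 116 and 106. Both were above 104 in each library, which is the upper quartile of the mean of both libraries over all genes with such peaks. Pdk2 was above Pdk4 in each library, though their ranges overlap. The uncoupling protein genes lie next to each other on chromosome 7 and parted here. Ucp2, expressed in many tissues, had 86 and 84 at an internal TSS 2454 bp into the gene and 51 and 45 at its 5′ end. Ucp3, the form of skeletal muscle, heart and brown fat, had no peak and no hotspot at any of its TSSs in either library. A peak of 63 and 69 lay 1.9 kb into Ucp3 (chr7:100472990-100486432, plus strand), inside an intron and within 500 bp of a TSS of Gm10603 on the opposite strand.

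The open upstream regions of Cpt1b and Pdk4 are printed with a stretch before Ucp3, which had no peak, to show their letters. The windows lie at different distances from the gene starts and were chosen with the values known. The Cpt1b and Pdk4 sequences are the highest promoter peaks of replicate 1, and the Ucp3 sequence is the 150 bp before its start, from the RefSeq promoter table on GRCm38.p6. All run 5′ to 3′ on the strand of the gene, and capitals mark CpG.
Cpt1b, chr15:89425916-89426065, minus strand: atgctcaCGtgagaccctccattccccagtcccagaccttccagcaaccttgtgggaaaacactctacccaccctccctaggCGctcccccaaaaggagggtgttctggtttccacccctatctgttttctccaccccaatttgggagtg
Pdk4, chr6:5496476-5496625, minus strand: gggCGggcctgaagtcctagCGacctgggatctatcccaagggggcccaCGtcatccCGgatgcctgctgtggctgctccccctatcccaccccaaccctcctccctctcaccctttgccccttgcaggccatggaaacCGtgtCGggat
Ucp3, chr7:100472840-100472989, plus strand: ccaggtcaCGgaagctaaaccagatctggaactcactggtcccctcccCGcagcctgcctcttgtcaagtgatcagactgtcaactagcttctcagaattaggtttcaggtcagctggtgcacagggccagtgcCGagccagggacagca
The Cpt1b stretch had 2 CpG and 56% G and C, the Pdk4 stretch 6 and 65.3%, and the Ucp3 stretch 3 and 56.7%. The median over all promoter peaks was 9 CpG in each library, and over the promoter peaks of the fatty acid genes 7 in replicate 1 and 6.5 in replicate 2. Over the 500 bp on either side of the 5′ end, observed over expected CpG was 0.198 at Ucp3, 0.339 at Cpt1b and 0.533 at Pdk4.

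Compared with genes of like CpG content, the mean promoter value was 94.4, where the medians of their CpG deciles averaged 81.2, and 26 of 36 genes lay above the median of their own decile. These values are the highest over all TSSs of a gene and were not matched for the number of TSSs, a median of 5 here against 3. For several of the CpG-poor genes the highest peak was not at the 5′ end from which the CpG content was taken. Cd36 had 36 and 50 at its 5′ end, 95 and 87 at an internal TSS 39.0 kb into the gene, and another site 52.9 kb into it in replicate 1 and 53.0 kb in replicate 2, with 72 in replicate 1 and 65 in replicate 2. Eci2 had 46 and 51 at its 5′ end and its 117 and 108 at a TSS 32.9 kb inside. Acacb had 89 and 84 at the 5′ end and its 116 and 99 at a TSS 29.2 kb inside, with further TSS peaks of 53 and 44 at 53.1 kb and of 60 and 52 at 101.7 kb. In both libraries, 8 genes had their highest promoter peak over 500 bp from the 5′ end, namely these 3 with Acsl5, Acsl6, Cpt1a, Etfdh and Ucp2. Peak lists do not show which of these sites starts a transcript in the heart.

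**Figure D2:**
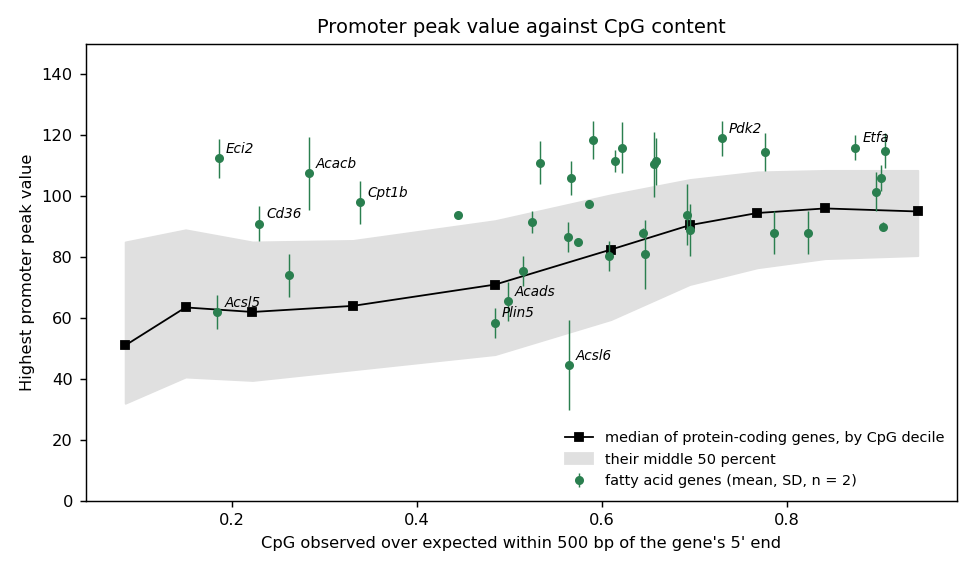
Highest promoter peak value (vertical axis) against the ratio of observed to expected CpG around the gene's 5′ end (horizontal axis), with dots and bars for the mean and SD of 2 libraries at 36 fatty acid genes, squares for the median of all protein-coding genes by CpG decile and grey for their middle 50 percent. Eci2, Acacb, Cpt1b and Cd36 lie above the grey band at low CpG content, where Eci2, Acacb and Cd36 have their highest peak at an internal start, and Acsl6 lies below the band.

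Hotspots gave the same picture as peaks, but come from the same libraries and are no independent check. A hotspot touching the 500 bp on either side of a TSS was present in both libraries at 36 of 37 genes and at 64.5% of all protein-coding genes, Ucp3 again being the gene without one. The widest such hotspot was 877 bp wide at the median in replicate 1 and 810 bp in replicate 2, against 689 and 705.5 bp for all genes. The authors' −log10 of the q-value was at its highest deposited value of 100 for 35 of the 36 in each library (97.2%), as it was for 85.5% and 81.9% of all genes with a TSS hotspot in both. Plin5 with 3.93 in replicate 1 and Cd36 with 4.12 in replicate 2 were the exceptions. Cpt1a had the widest in replicate 1 with 2726 bp, but 1368 bp in replicate 2, and Acaa2 had 2565 and 1452 bp. Etfdh with 1685 and 1852 bp and Pdk4 with 1414 and 1445 bp were wide in both libraries. Hotspots covered a median of 4.41% of the gene and 50 kb on either side, against 2.88% for all genes, from 1.23% at Acsl4 to 10.1% at Acadvl. This share takes in hotspots at the promoters of neighbouring genes, of which the Acadvl window holds many.

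Beyond the promoters, distal peaks were counted in each gene and 50 kb on either side. The genes had medians of 10 (replicate 1) and 9 (replicate 2), against 7 and 6 for all protein-coding genes. They are longer than other genes, with a median of 22554 bp against 17433 bp. Set against genes of their own length decile, their mean was 9.47 against 8.01, and 25 of 37 lay above the median of their decile. Per 100 kb of window the median was 7.55 and 6.32, against 5.60 and 4.84. Within the gene and over 500 bp from every TSS, the median was 2 peaks in both libraries against 1.

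Counts were highest at Acacb, with 19 in each library, Cpt1a with 17 in each and Acaa2 with 16 in each. Cd36 had 15 and 16, Lpl 14 and 16, Slc27a1 15 and 13, and Acsl1 15 and 15. Genes of uptake thus had more distal peaks than the median gene, as did Cpt1a, Acacb and Mlycd, which form or regulate the mitochondrial gate, but not Cpt1b. By role, later steps of the spiral (median 11.5), carnitine shuttle and malonyl-CoA control (10.75) and acyl-CoA activation (9.5) were also above the median gene, at 7. So were fuel switch (9.25), the thioesterase (9) and unsaturated chains (7.5). Acyl-CoA dehydrogenases (7) were level with it. Lipid droplet (5.75), electron transfer (5.5) and uncoupling genes (4) were below. These counts are not scaled by the window, which was 207 kb at Cd36 and 204 kb at Acacb. Other genes had few. Pnpla2 had 4 and 2, Cpt1b 4 and 3, Decr1 4 and 4, Etfb 5 and 4, and Acadvl 5 and 4. Ucp2 and Ucp3 each had 5 and 3. Single counts were uncertain at some genes, since Acads had 11 and 5, Slc25a20 6 and 11, and Etfa 13 and 8.

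**Figure D3:**
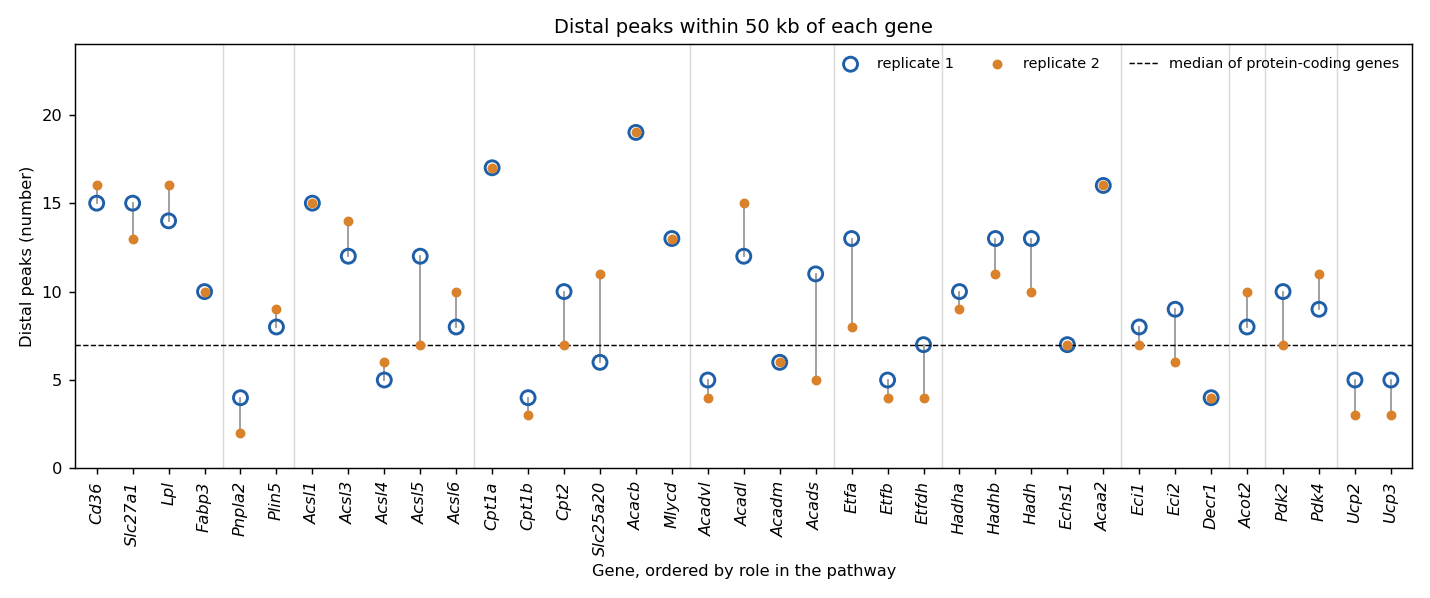
Number of distal peaks within 50 kb of each of the 37 genes (vertical axis), with an open ring for replicate 1 and a filled dot for replicate 2; the dashed line is the median of 7 for all protein-coding genes. Acacb, Cpt1a and Acaa2 are highest with the same count in both libraries, and Acads, Etfa, Slc25a20 and Acsl5 differ by 5 or more between libraries.

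Distal peaks around these genes were found again in the other library about as often as distal peaks elsewhere. In replicate 1, 255 of 350 (72.9%) overlapped a peak of replicate 2, against 67.7% of all distal peaks, and in replicate 2 259 of 328 (79.0%) had a partner, against 79.4%. Those without a partner were weaker, with medians of 27 (replicate 1) and 25 (replicate 2), where those with a partner had 47 and 43. A peak within 50 kb need not belong to the gene. A fatty acid gene was the nearest protein-coding gene for 166 of the distal peaks in replicate 1 (47.4%) and 165 in replicate 2 (50.3%). Of 250 distal sites found in both libraries, 123 were nearest to a fatty acid gene, with median values of 48 and 43. They lay in introns in 59 cases, in exons in 12 and between genes in 52. At 28 genes there was at least 1 such site, and 9 had none, namely Pnpla2, Cpt1b, Acadvl, Acadm, Acads, Echs1, Acot2, Ucp2 and Ucp3.

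By the mean of both libraries, Acacb had the highest distal site nearest to a fatty acid gene, at chr5:114139336-114139485 and 7.1 kb before the gene, with values of 104 and 107. Lpl followed with an intronic site 22.7 kb into the gene (chr8:68903076-68903225) at 108 and 94. Pdk4 had a site 13.7 kb upstream (chr6:5509896-5510045) at 95 and 102. The Hadhb intron held a site at 97 and 81 (chr5:30172196-30172345), 17.0 kb into the gene. Cpt1a had an intronic site 3.2 kb into the gene (chr19:3325476-3325625) at 92 and 89. These values are as high as many promoter peaks of the set. In Cd36 all 11 distal sites found in both libraries were nearest to Cd36, and the highest lay in an intron 7.8 kb into the gene (chr5:17880916-17881065) with 95 and 76. Acsl3 had 10 of 10 such sites nearest to itself, Lpl 10 of 11 and Acsl1 9 of 10. At Slc27a1 it was 1 of 11. The distal site with the highest mean value in any of the windows lay 38.7 kb before Cpt2 at 118 and 106 (chr4:107962236-107962385), but is nearest to Slc1a7. Other high sites nearest to a neighbour were those in Arih2 near Slc25a20 at 105 and 96, beside Ppp1r9b near Pdk2 at 88 and 99, in Ccdc194 near Slc27a1 at 89 and 93, and in Dlg4 near Acadvl at 92 and 85.

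**Figure D4:**
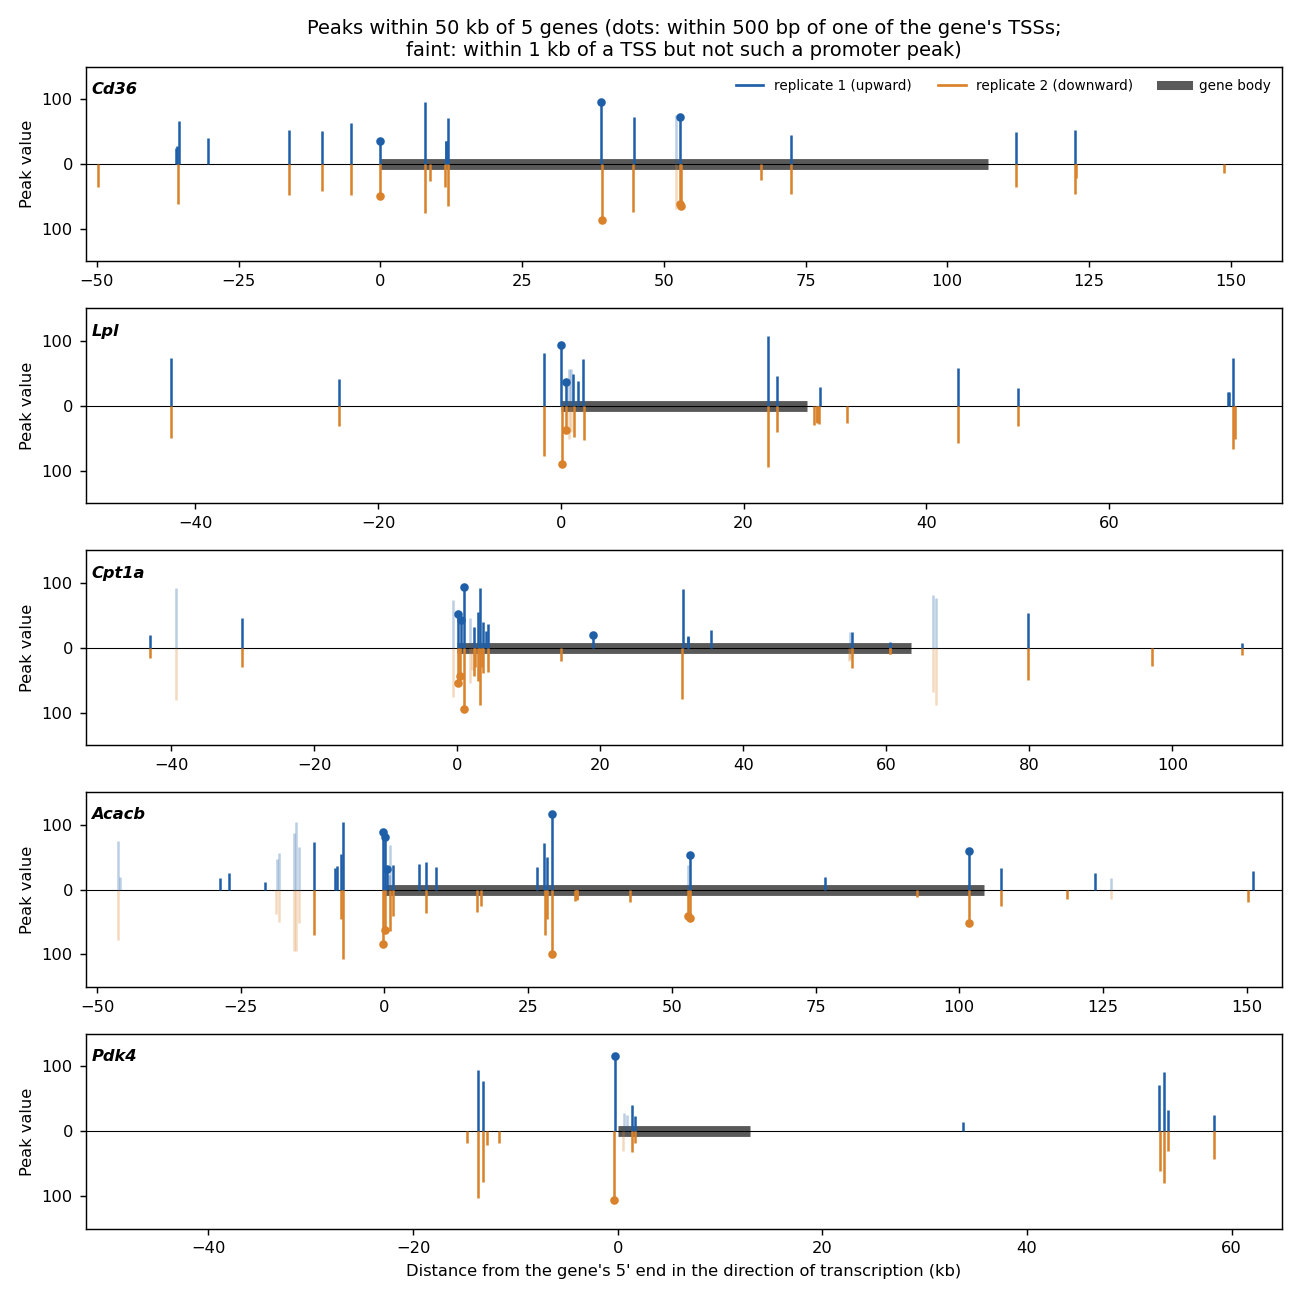
Peaks around Cd36, Lpl, Cpt1a, Acacb and Pdk4, with the distance from the gene's 5′ end in kb on the horizontal axis and the peak value on the vertical axis, replicate 1 upward and replicate 2 downward; dots mark promoter peaks, faint lines other peaks within 1 kb of a TSS, and the grey bar the gene body. The tall sites recur in both libraries, with internal promoter peaks in Cd36 and Acacb taller than those at the 5′ end and the intronic site of Lpl at 22.7 kb as tall as its promoter.

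Genes that act beside these were also accessible. All 10 regulators listed had a promoter peak in both libraries, where 81.4% of genes in their CpG deciles had one. Among them were the receptor genes Esrra at 126 and 111, Ppara at 95 and 89, Ppard at 102 and 106 and Esrrg at 95 and 87, and the coactivator gene Ppargc1a at 93 and 92. Pparg, the receptor of fat cells, had 31 and 22. All 16 other genes of uptake and storage had one, against 56.0% in their CpG deciles, from Slc27a6 at 46 and 34 to Dgat1, which makes triglyceride, at 127 and 118. The same held for 11 of 11 other mitochondrial genes (83.6% in their deciles), with the carnitine transporter gene Slc22a5 at 119 and 109. It also held for 7 of 7 peroxisomal genes (85.1%) and for 3 of 3 genes of ketone body use (71.8%), with Oxct1 at 119 and 94. Several of these counts are near the share of genes of like CpG content. Some relatives known from other tissues had a promoter peak in both libraries. Acot1, next to Acot2, had 90 and 86, Cpt1c, the form of brain, 72 and 56, and Fabp7 45 and 33. Ucp1, Fabp1, Fabp2, Fabp6, Slc27a2, Slc27a5, Acsm1 and Acsbg1 did not. Fabp1, the binding protein of liver, and Slc27a5, the transporter of liver, are among those without one. Of the 12 listed relatives 33.3% had one, against 45.3% of genes in their CpG deciles. In the families of Fabp3 and Slc27a1, a promoter peak in both libraries was also found at Fabp4 (47 and 47) and Fabp5 (83 and 88). Slc27a4 (90 and 90) and Slc27a6 had one as well.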

How the data were processed

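DNase-seq was done on 2 libraries of newborn mouse heart. Per the deposited text files, peaks and hotspots were called for each replicate separately on mm10; the aligner and the caller with its version and threshold were not given in the sources used here. The deposited peak lists give each peak a signal value, whose scaling is not stated, and the deposited hotspot lists a −log10 of the q-value from 1.3 up to a highest value of 100. No read totals were at hand, so precision was limited to the spread of 2 libraries. An unknown threshold and depth can change every count of weak peaks.

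GENCODE vM21 gave the genes and TSSs, and sequences came from GRCm38.p6, whose chromosomes hold all peak coordinates. Coordinates count from 1. A promoter peak had its centre within 500 bp of a TSS of the gene, and a distal peak over 1000 bp from every TSS and within 50 kb of the gene. A peak with 1 bp or more in a peak of the other library counted as shared. All 37 genes were named, with the highest promoter peak of each and the 10 highest distal sites of both libraries. Sequences were printed for peaks of both libraries with an ERR element or direct repeat outside exons, and not for chromosome 18. The upstream sequences of Cpt1b, Pdk4 and Ucp3, the gene maps and other distal sites were chosen after their values were seen. Some listed genes that are not members are not reported here. The members, gene lists and rules were chosen with earlier results of these data known. As a check of the code alone, peak assignment recovered 200 of 200 simulated promoter peaks, all placed inside the 500 bp window. Other windows, stronger peaks, equal list lengths and single libraries were tried. Python 3.11.15, numpy 2.4.6, pandas 2.3.3 and matplotlib 3.10.9 were used.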

Additional observations from a re-analysis of the deposited data

How the results depend on the processing

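No paired analysis was possible because the series has 1 group. Of 38 alternative values for 8 summaries of the fatty acid genes, 25 stayed within the spread of the libraries, or within 1.5 times for counts, and 13 moved. A promoter peak in both libraries was found at 36 genes, a count that ranged from 33 with a window of 250 bp (61.1% of all genes; Acsl5, Acsl6 and Pdk4 lost) to 36 with 1000 bp (66.0%), and was 34 at the 5′ end alone. With the stronger 50 percent of peaks it was 35, Acsl6 being lost (57.6% of all genes). The median highest promoter value of 94 was 89.5 at the 5′ end alone and 94.5 with either replicate left out. The median of 9 distal peaks was 4.5 with a window of 20 kb, 15 with 100 kb, 7 over 2 kb from every TSS, and 5.5 with the stronger 50 percent of peaks, changes that follow from the smaller or larger set counted, and ranged from 9 to 10 with a replicate left out. The median of 2 gene-body peaks was 4 when promoter peaks were counted too and 1 with the stronger 50 percent of peaks. Hotspot width, 872.5 bp, ranged from 810 to 877 bp with a replicate left out. The share of distal peaks with an ERR element or direct repeat, 2.80%, was 3.84% in peaks widened by 75 bp on each side and 2.92% in peaks found in both libraries; the cause of the latter was not tested. Peaks with a partner, 75.9%, ranged from 72.9% to 79.0%. Unknown depth limits what a missing weak peak shows.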

Other observations

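Genes of fatty acid synthesis, the opposite route, also had promoter peaks. All 6 had a promoter peak in both libraries, where 85.3% of genes in their CpG deciles had one, with 111 and 94 at Acaca, 117 and 110 at Fasn, 114 and 102 at Acly, 120 and 112 at Scd2, 74 and 60 at Scd1 and 72 and 60 at Elovl6. Their median of 105.25 compares with 94 for the fatty acid uptake and oxidation genes, and Acaca, which makes malonyl-CoA in the cytosol, had values close to those of its mitochondrial relative Acacb at 116 and 99. The other pyruvate dehydrogenase kinase genes also had a promoter peak in both libraries, Pdk1 at 107 and 98 and Pdk3 at 69 and 57. In their CpG deciles 94.6% of genes had one.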
